A study of Mus musculus with 13 samples.

Results

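The genes described here encode the machinery that moves new proteins into and out of the endoplasmic reticulum (ER) and that responds when folding there fails. They are a list of 47 genes, all found by symbol among the 21887 protein-coding genes of the mouse RefSeq table. The list covers the signal recognition particle (5 genes), the translocon (5), the translocon-associated protein complex (4), signal peptidase (3), the COPII coat (10), the COPI coat (4), ER folding (9), unfolded protein response signalling (3) and ER-associated degradation (4). Membership in the list was the only criterion, and no summit count entered it. The list was, however, chosen with earlier results of these data known.

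Secreted and membrane proteins are recognised by the signal recognition particle as they leave the ribosome, pass through the Sec61 translocon, lose their signal peptide and are folded by chaperones and disulfide isomerases. COPII vesicles carry them from the ER towards the Golgi, and COPI vesicles return escaped ER proteins. When unfolded protein builds up, the sensors IRE1, ATF6 and PERK raise folding capacity, in part through the transcription factor XBP1, and misfolded chains are sent back to the cytosol for degradation. Antibody-secreting cells depend on this machinery, and BLIMP1, encoded by Prdm1, is a DNA-binding regulator required for them to form.

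BLIMP1 binding was mapped by ChIP-seq in 12 libraries from 6 mouse cell types, 2 libraries each, and each library is represented by a list of summits, which are the positions of highest signal in its peaks. All cells were C57BL/6, carried EGFP fused to the N terminus of BLIMP1 on both alleles, and were precipitated with a rabbit polyclonal antibody against GFP, so no group encodes an untagged BLIMP1. The lists carry no height or score, so a gene could be called only with or without a summit. The labels do not say whether the 2 libraries of a cell type came from separate cultures or animals.

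Primordial germ cell-like cells (PGCLC) were made in culture from EGFP-Blimp1 knock-in embryonic stem cells by way of epiblast-like cells (36 h). The d2 PGCLC were grown with LIF and BMP4 at 500 ng/mL and sorted for KIT. The d6 PGCLC were grown with LIF, BMP4 and BMP8a at 500 ng/mL, with EGF at 50 ng/mL and SCF at 100 ng/mL, and sorted for SSEA1 and integrin beta-3. Primordial germ cells (PGC) of E12.5 (E, embryonic day) were sorted for SSEA1 from gonads of embryos made by sperm injection. They gave 1 male and 1 female library, which were treated as the 2 libraries of the E12.5 PGC. Embryonic intestinal epithelium (E16.5) was sorted for GFP and EPCAM, and photoreceptor precursors from retina (postnatal day 4) for GFP. Plasmablasts were obtained from B cells stimulated for 3 days with IL-4 (2 ng/mL) and LPS (10 ng/mL), and were sorted for both CD138 and GFP. The lists held 7998 to 76185 summits, with a median of 15822.5. The longest was that of d6 PGCLC replicate 1, against 15411 summits in replicate 2. Read depth is not given. The number of cells used also differed between libraries. It was lower in replicate 1 than in replicate 2 of both PGCLC stages. In most germ-lineage libraries it was lower than in the somatic ones. Whether it affected the lists was not tested.

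Binding of a gene required a summit within 1 kb of either of its ends in both libraries of a cell type. In plasmablasts every step of the secretory route had bound genes at this distance. Of the 47 genes, 40 (85.1%) were bound in plasmablasts, beside 39.6% of the 21840 other protein-coding genes. Cytosolic ribosomal protein genes, taken as a reference set of highly expressed housekeeping genes, reached 72 of 79 (91.1%), so the ER genes did not exceed that reference. The other 5 cell types had 2 to 10 of the 47 genes bound.

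In photoreceptor precursors 10 genes (21.3%) were bound, beside 9.65% of all other genes and 22 of 79 ribosomal protein genes (27.8%). In d6 PGCLC 6 genes (12.8%) were bound, beside 9.72% of the others and 11.4% of ribosomal protein genes. In intestinal epithelium 5 genes (10.6%) were bound, beside 7.28% (ribosomal 13.9%). The d2 PGCLC had 4 genes (8.51%), beside 8.41% (ribosomal 12.7%), and the E12.5 PGC had 2 genes (4.26%), beside 5.79% (ribosomal 11.4%). The shares in the germ-lineage cells and the intestinal epithelium were thus close to the background, and below it in E12.5 PGC, whereas those of photoreceptor precursors and plasmablasts were well above it.

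Single libraries showed how far these shares depend on the list. The share of the 47 genes with a summit was 91.5% and 85.1% in plasmablasts (replicates 1 and 2) and 29.8% and 34% in photoreceptor precursors, against 42.6% and 45.4%, and 12.2% and 14.5%, of the other genes. In both of these cell types the replicates lay close together and both were well above the other genes. The share was 59.6% and 14.9% in d6 PGCLC, against 35.9% and 10.4% of the others. It was 8.51% and 25.5% in d2 PGCLC (others 9.59% and 17.1%) and 10.6% and 34% in intestinal epithelium (others 9.62% and 16.8%). In E12.5 PGC it was 8.51% in the male and 17% in the female library, against 7.89% and 11.3%. In each of these 4 cell types the library with more genes bound overall also had more of the ER genes, and the number bound could not exceed that of the library with fewer.

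Relative to the other genes, the ER genes had a summit 2.15 and 1.88 times as often in the plasmablast libraries and 2.45 and 2.35 times as often in the photoreceptor precursor libraries. The ratio was 1.66 and 1.43 in d6 PGCLC, 1.11 and 2.03 in intestinal epithelium, 0.888 and 1.5 in d2 PGCLC and 1.08 (male) and 1.51 (female) for E12.5 PGC. On this scale the photoreceptor precursor values were no smaller than those of plasmablasts, while far fewer genes were involved. The ratio cannot rank these 2 cell types, however. Since 42.6% and 45.4% of other genes already had a plasmablast summit, it could not have risen far there even with every ER gene counted. For ribosomal protein genes the same ratios were 2.14 and 2.12 in plasmablasts and 3.02 and 2.71 in photoreceptor precursors.

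**Figure D1:**
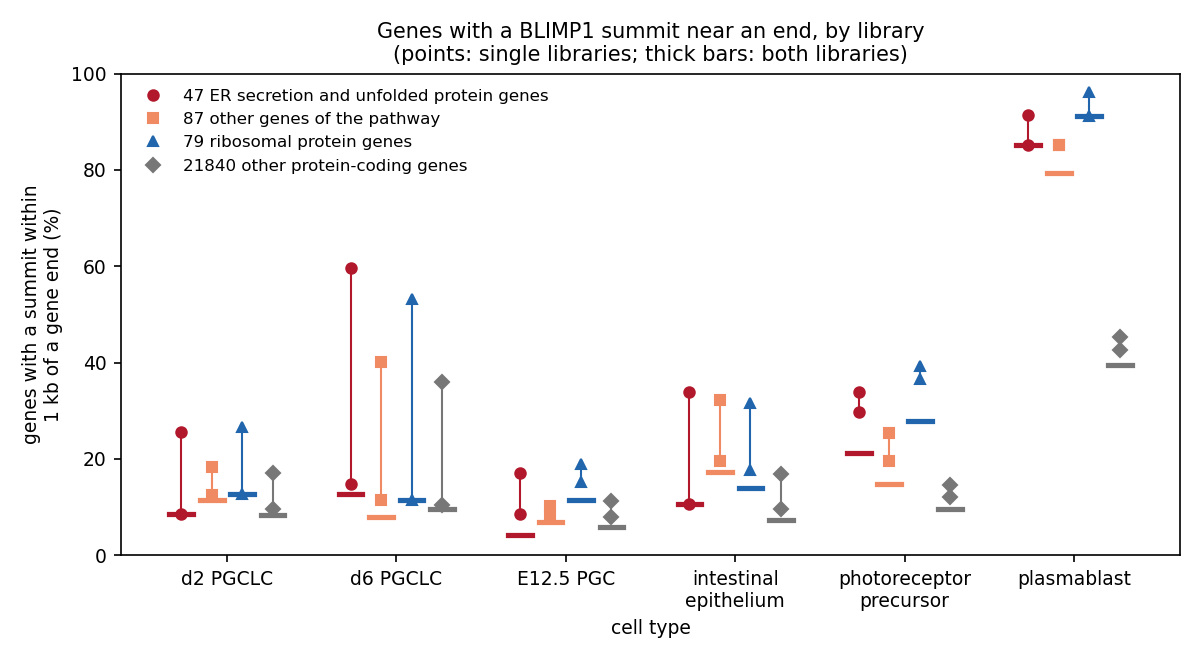
Percentage of genes with a BLIMP1 summit within 1 kb of either gene end (vertical axis) in each library, by cell type (horizontal axis). Points are single libraries joined by a line, thick bars give the share with a summit in both libraries, and colours mark the 47 ER genes, 87 other genes of the pathway, 79 ribosomal protein genes and the 21840 other protein-coding genes. In plasmablasts the bars of the ER genes and of the ribosomal protein genes stand at 85.1% and 91.1%, above that of the other genes at 39.6%.

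With the window widened to 5 kb, 46 of the 47 genes were bound in plasmablasts (other genes 50.2%), all except Ssr4. The counts were 12 in photoreceptor precursors (others 15.4%), 9 in d6 PGCLC (others 19.2%), 8 in intestinal epithelium (others 12.9%), 7 in d2 PGCLC (others 17.8%) and 5 for the E12.5 PGC (others 12.2%). As shares of the 47 genes these were 25.5%, 19.1%, 17%, 14.9% and 10.6%. Ribosomal protein genes reached 35.4%, 29.1%, 25.3%, 29.1% and 24.1% in the same order. In plasmablasts 78 of 79 of them (98.7%) were bound at 5 kb, so the ER genes did not exceed that reference. At 5 kb the ER genes in both PGCLC stages and in E12.5 PGC were bound no more often than other genes.

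Binding was spread unevenly over the 47 genes. Plasmablasts were the only cell type with binding for 25 of them (53.2%), a pattern held by 25.7% of all other genes and 59.5% of the ribosomal protein genes. A further 15 were bound in plasmablasts and at least 1 other cell type. Sec61a1 and Hsp90b1 were bound elsewhere but not in plasmablasts, and 5 genes were bound in no cell type (10.6%, beside 55.7% of the other genes). Srp72, Sec61g, Ssr2, Spcs3, Sar1a and Sel1l had summits within 1 kb in the plasmablast libraries and in no library of another cell type. In at least 1 germ-lineage cell type 7 genes were bound (14.9%, beside 12.4% of the other genes), namely Srp9, Sec61a1, Spcs1, Sec23b, Sec24c, Dnajb11 and Xbp1.

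**Figure D2:**
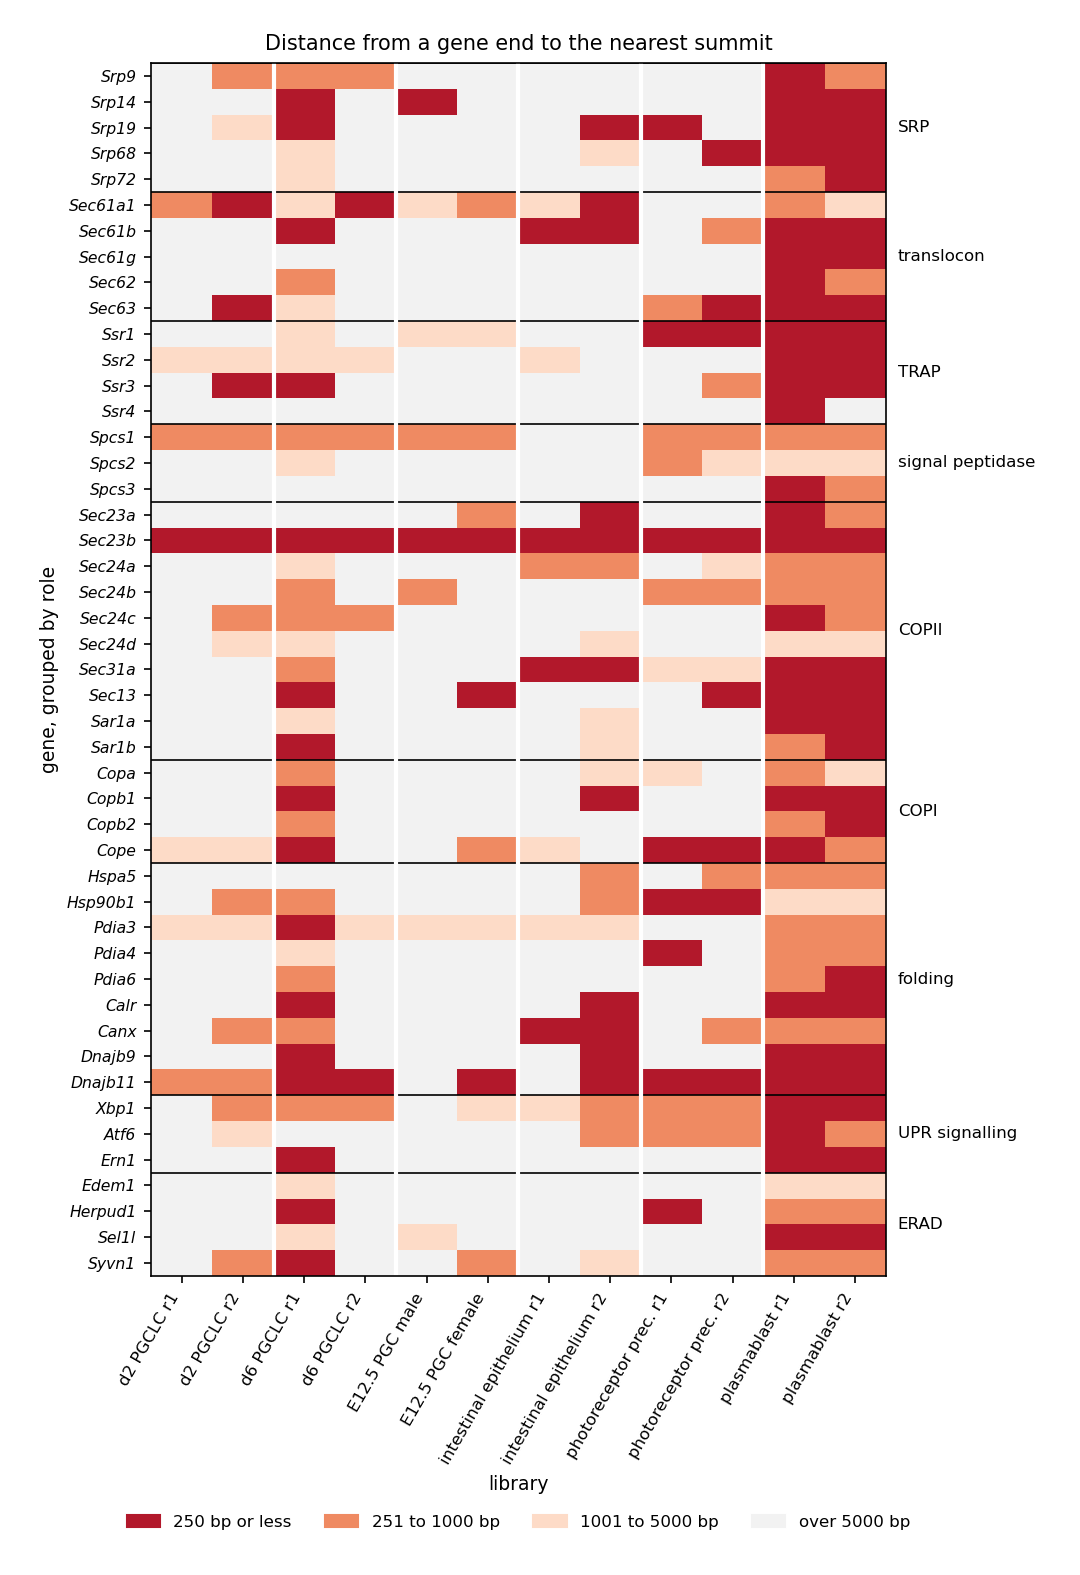
Distance from either gene end to the nearest summit, in classes of bp, for each of the 47 genes (rows, grouped by role) in each of the 12 libraries (columns). Dark red marks 250 bp or less and grey marks over 5000 bp. The plasmablast columns are filled for nearly every gene, Sec23b is dark in all 12 columns, and the column of d6 PGCLC replicate 1 holds 28 genes within 1000 bp where replicate 2 holds 7.

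The signal recognition particle, which delivers ribosomes to the ER membrane, had all of its 5 listed genes bound in plasmablasts. Distances from a gene end in the plasmablast libraries were 107 and 420 bp for Srp9, 0 and 34 bp for Srp14, 124 and 148 bp for Srp19, 202 and 232 bp for Srp68 and 470 and 158 bp for Srp72. Srp9 and Srp14 encode the pair of proteins that pauses elongation. Srp9 was also bound in d6 PGCLC, at 334 and 404 bp, and it had a summit at 463 bp in d2 PGCLC replicate 2 only. The other 4 genes were bound in no cell type but plasmablasts, although Srp14, Srp19 and Srp68 had summits in single libraries of other cell types, such as Srp14 at 17 bp in male E12.5 PGC.

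Of the translocon genes, Sec61b, Sec61g, Sec62 and Sec63 were bound in plasmablasts and Sec61a1, which encodes the channel itself, was not. Sec61b and Sec61g encode the small subunits of the channel, and Sec62 and Sec63 encode partners for precursors that enter after translation. Sec61b lay at 127 and 89 bp from a plasmablast summit and was bound in intestinal epithelium at 118 and 51 bp. Sec63 was bound in photoreceptor precursors, at 366 and 27 bp, and in plasmablasts, at 104 and 198 bp. Sec61g had plasmablast summits at 84 and 241 bp and none within 5 kb in the other 10 libraries.

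Sec61a1 had its nearest summit at 270 and 146 bp in d2 PGCLC, the cell type in which it was bound. The distances were 1587 and 213 bp in d6 PGCLC, 1529 (male) and 302 bp (female) in E12.5 PGC, 1576 and 230 bp in intestinal epithelium and 387 and 1284 bp in plasmablasts. In photoreceptor precursors the nearest summits were 41075 and 41033 bp away. Sec61a1 thus had a summit within 1 kb in 6 libraries, 1 in each of 4 cell types and both in d2 PGCLC. A second place 1482 bp beyond the higher-coordinate end, at chr6:88520282-88520387, had summits in 10 libraries, and in both libraries of every cell type but photoreceptor precursors. Because of that place Sec61a1 was bound in 5 cell types at the 5 kb window.

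The translocon-associated protein complex assists the passage of some precursors through Sec61. Ssr1, Ssr2 and Ssr3 were bound in plasmablasts, at 94 and 124 bp, 216 and 90 bp, and 199 and 108 bp. Ssr1 was also bound in photoreceptor precursors, at 41 and 140 bp. Ssr4 had a summit at 181 bp in plasmablast replicate 1, and the nearest one in plasmablast replicate 2 was 68102 bp away. In the other 10 libraries the nearest summit to Ssr4 lay 33086 to 577870 bp away, so Ssr4, on chromosome X, was bound in no cell type at either window.

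Signal peptidase removes signal peptides inside the ER. Spcs1, which encodes a small subunit in a gene of 1841 bp, was bound in 5 cell types. Its summits lay 522 and 507 bp inside the gene from the start site in d2 PGCLC, 532 and 322 bp in d6 PGCLC, 592 (male) and 532 bp (female) in E12.5 PGC and 437 and 443 bp in photoreceptor precursors. These 8 summits all fell on one side of the start site, and none was inside the window from 250 bp before to 50 bp after it. In plasmablasts the nearest summit to the start was 570 bp inside the gene in replicate 1 and 294 bp before it in replicate 2, and each library had 2 summits within 1 kb. In intestinal epithelium the nearest summits were 330866 and 17375 bp away. An end of Glt8d1 lies 469 bp from Spcs1, so a summit between them cannot be given to one gene.

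Spcs3 was bound in plasmablasts alone, at 84 and 298 bp. Spcs2 was bound in no cell type. Its nearest summits in plasmablasts were 2261 and 2199 bp from the end of the gene, and in photoreceptor precursors 805 and 1046 bp. The single summit of d6 PGCLC replicate 1 was at 2320 bp. In the remaining 7 libraries the distance was 81131 to 143880 bp. Both plasmablast libraries therefore missed the 1 kb limit at Spcs2, while in photoreceptor precursors only replicate 2 did. Plasmablasts and photoreceptor precursors both passed at 5 kb.

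The COPII coat, which buds vesicles from the ER, had 9 of its 10 genes bound in plasmablasts. Sec23b, which encodes an inner-coat subunit, was the single member of the list bound in all 6 cell types (497 other protein-coding genes, 2.28%, had this pattern). Relative to its start site, the nearest summits of Sec23b were at -86 and -35 bp in d2 PGCLC, -48 and -11 bp in d6 PGCLC, -55 (male) and -29 bp (female) in E12.5 PGC, -117 and -36 bp in intestinal epithelium, -26 and -76 bp in photoreceptor precursors and 4 and -31 bp in plasmablasts. All 12 summits lay within 121 bp of one another, at chr2:144556112-144556233, and 11 of them were upstream of the start. No other gene of the list had a summit within 1 kb in every library.

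The bases before the start sites of Sec23b and Dnajb11 are shown because these are the members bound in at least 4 cell types whose summits fell in the promoter window, in 12 and 8 libraries. They are the 250 bases before the start on the + strand of GRCm38.p6 (the coordinates of mm10), from RefSeq, read 5′ to 3′ in the direction of transcription, at chr2:144555979-144556228 for Sec23b and chr16:22857595-22857844 for Dnajb11. Capitals mark matches on either strand to GAAAG, the core of the sequence BLIMP1 is known to bind, and to the repeat GAAANNGAAA.
Sec23b: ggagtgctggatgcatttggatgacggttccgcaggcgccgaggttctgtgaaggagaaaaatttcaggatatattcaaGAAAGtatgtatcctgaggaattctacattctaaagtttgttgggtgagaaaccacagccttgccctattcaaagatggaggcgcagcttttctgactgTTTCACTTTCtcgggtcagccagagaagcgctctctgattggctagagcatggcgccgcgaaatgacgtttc
Dnajb11: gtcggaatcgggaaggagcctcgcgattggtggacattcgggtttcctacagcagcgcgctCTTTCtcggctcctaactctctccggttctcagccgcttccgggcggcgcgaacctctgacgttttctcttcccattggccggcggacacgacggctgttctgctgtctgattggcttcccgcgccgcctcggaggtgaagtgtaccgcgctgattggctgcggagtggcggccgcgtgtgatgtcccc

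In Sec23b the repeat lay at -72 to -63 bp, and the 12 nearest summits were 8.5 to 71.5 bp from its centre, with a median of 34.5 bp. Sec23b also held GAAAG at -171 to -167 bp. In Dnajb11 the single GAAAG lay at -189 to -185 bp. The repeat is present in 3.35% of all 21263 RefSeq promoter windows and in 2 of the 43 windows of the ER genes (4.65%), the other being that of Cope. A match of this kind describes the letters and does not show a binding site.

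The other COPII genes were bound in fewer cell types. Sec23a, the paralogue of Sec23b, was bound in plasmablasts alone, at 169 and 365 bp. Of the genes for cargo-binding SEC24 subunits, Sec24a was bound in intestinal epithelium (660 and 695 bp), Sec24b in photoreceptor precursors (857 and 631 bp) and Sec24c in d6 PGCLC (531 and 387 bp), and each of these was also bound in plasmablasts. Their plasmablast distances were 616 and 646 bp, 821 and 827 bp, and 76 and 438 bp. Single libraries of other cell types also had a summit: d6 PGCLC replicate 1 at 412 bp and the male E12.5 PGC at 634 bp for Sec24b, and d2 PGCLC replicate 2 at 589 bp for Sec24c. Whether the cell types differ in these genes was not tested. Sec31a, an outer-coat subunit, was bound in intestinal epithelium at 224 and 123 bp and in plasmablasts at 181 and 116 bp. Sec13, its partner in the cage, and Sar1a and Sar1b, the GTPases that start coat assembly, were bound in plasmablasts alone, at 82 and 139 bp, 168 and 227 bp, and 281 and 16 bp.

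Sec24d was bound in no cell type by its gene ends, with plasmablast summits 2503 and 1271 bp from an end. Its listed start site, however, lies 2695 bp inside the gene, and the plasmablast summits nearest to that start were at -192 and 620 bp. Single libraries of d2 PGCLC (replicate 2), d6 PGCLC (replicate 1) and intestinal epithelium (replicate 2) also had summits near this start, at 130, -178 and 410 bp. In the remaining libraries no summit lay within 20202 bp of an end.

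The COPI coat had Copb1, Copb2 and Cope bound in plasmablasts, at 87 and 89 bp, 271 and 23 bp, and 199 and 258 bp. Cope was also bound in photoreceptor precursors, at 206 and 197 bp. The 2 other genes had single-library summits in d6 PGCLC replicate 1, at 68 bp for Copb1 and 325 bp for Copb2. Copa, the largest coat subunit, had summits at 465 bp in plasmablast replicate 1 and 426 bp in d6 PGCLC replicate 1. In plasmablast replicate 2 the nearest summit to Copa was 4517 bp away, and in intestinal epithelium replicate 2 and photoreceptor precursor replicate 1 it was 4538 and 4472 bp away. The other 7 libraries had none within 14128 bp, and Copa was bound in no cell type at 1 kb.

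Of the 9 folding genes, 8 were bound in plasmablasts. Hspa5 encodes BiP, the main ER chaperone, and its summits were 391 and 407 bp inside the gene in plasmablasts. A summit at 410 bp was listed in photoreceptor precursor replicate 2 but not in replicate 1, where the nearest was 17569 bp away. Calr and Canx, the lectin chaperones of glycoproteins, were bound in plasmablasts at 62 and 137 bp and at 370 and 561 bp, and Canx was bound in intestinal epithelium at 173 and 40 bp. The disulfide isomerase genes Pdia3, Pdia4 and Pdia6 were bound in plasmablasts alone, at 267 and 789 bp, 365 and 709 bp, and 635 and 51 bp. Dnajb9, a BiP co-chaperone, was bound at 88 and 90 bp in plasmablasts alone.

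Dnajb11, another BiP co-chaperone, was bound in 4 cell types. Its nearest summits relative to the start site were at -256 and -298 bp in d2 PGCLC, -171 and -55 bp in d6 PGCLC, -160 and -192 bp in photoreceptor precursors and -229 and -61 bp in plasmablasts. It had a summit at -107 bp in female E12.5 PGC and at -132 bp in intestinal epithelium replicate 2, while the male library and intestinal replicate 1 had none within 57031 and 228046 bp. All 10 summits were upstream of the start, within 243 bp of one another. An end of Tbccd1 lies 150 bp from Dnajb11, so these summits are shared by both genes.

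Hsp90b1, which encodes the ER chaperone GRP94, was the reverse of the common pattern. It was bound in photoreceptor precursors, at -208 and -100 bp from its start, and not in plasmablasts, where the nearest summits lay at -1210 and 1423 bp. Summits at -604 bp in d2 PGCLC replicate 2, -368 bp in d6 PGCLC replicate 1 and -632 bp in intestinal epithelium replicate 2 stood alone in their cell types. Hsp90b1 was bound in plasmablasts at 5 kb.

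All 3 signalling genes of the unfolded protein response were bound in plasmablasts. Xbp1, whose spliced product drives expansion of the ER in secretory cells, was also bound in d6 PGCLC and photoreceptor precursors. In plasmablasts the summits nearest to an end of Xbp1 were at its 3′ end, 104 bp from it in replicate 1 and 222 bp in replicate 2. Nearest to the start site they were at 234 and 1250 bp. In photoreceptor precursors they lay 345 and 266 bp inside the gene from the start. In d6 PGCLC the summits nearest to an end were 327 bp from the 3′ end in replicate 1 and 656 bp from the 5′ end in replicate 2. Those nearest to the start were at 484 and 656 bp. Single summits stood at 766 bp in d2 PGCLC replicate 2 and 298 bp in intestinal epithelium replicate 2, and their partner libraries had none within 76573 and 4655 bp. In E12.5 PGC the distances were 9307 bp (male) and 4615 bp (female).

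Xbp1 had 7 and 9 plasmablast summits within 5 kb of its ends, the most of the 47 genes when both libraries are added. Next came Pdia3 with 6 and 7 and Syvn1 with 7 and 6. Among the ER genes with a summit within 1 kb, the median number of summits within 5 kb was 2 in plasmablast replicate 1 and 3 in replicate 2, beside 2 in each library for the other genes. The means were 2.53 and 3.33 for the ER genes and 2.47 and 2.61 for the others. The highest numbers were 7 and 9 for the ER genes and 14 and 16 for the others. Between 8126 and 19239 bp outside Xbp1, 4 more places had a summit in both plasmablast libraries within runs no wider than 148 bp. How common such places are around other genes was not counted. The Xbp1 gene occupies chr11:5520641-5525993.

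Atf6 encodes a membrane-bound transcription factor that is cut and released on ER stress, and it was bound in plasmablasts and photoreceptor precursors. A start site was not analysed here for it, so distances are from the nearer gene end. They were 85 and 745 bp in plasmablasts and 773 and 748 bp in photoreceptor precursors, with a single summit at 848 bp in intestinal epithelium replicate 2, all at the higher-coordinate end. In intestinal epithelium replicate 1 the distance was 114440 bp, and in the 6 germ-lineage libraries it was 3023 to 24856 bp.

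Germ-lineage binding at Atf6 lay inside the gene. At chr1:170843729-170843758, at least 24827 bp from either end, each of the 6 germ-lineage libraries had a summit and none of the 6 somatic libraries did. The 6 summits fell within 29 bp. Across the genome 1624 places, joined from summits at most 200 bp apart, had this pattern, and 687 of the 21887 protein-coding genes contained one. Atf6, at 164129 bp the longest of the 47 genes, was the only one of the list among them. The ER genes thus did not hold such places more often than genes in general. Exon and intron positions were not analysed here. Elsewhere inside Atf6, at chr1:170793663-170793756, both d2 PGCLC and both d6 PGCLC libraries had a summit, as did female E12.5 PGC.

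Ern1 encodes IRE1, the kinase and nuclease that splices Xbp1 mRNA. It was bound in plasmablasts alone, at -114 and -196 bp from its start, and d6 PGCLC replicate 1 had a summit at 36 bp. In the other 9 libraries the nearest summit to an end was 16760 to 108204 bp away. Upstream of Ern1, 28544 bp or more from its start at chr11:106516340-106516390, both libraries of d2 PGCLC and d6 PGCLC and the female E12.5 PGC library had a summit, whereas the male library did not. The nearest gene end to that place belongs to Tex2, at 14226 bp.

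For degradation of misfolded proteins, Herpud1, Sel1l and Syvn1 were bound in plasmablasts and in no other cell type. Sel1l and Syvn1 encode the core of the HRD1 ubiquitin ligase complex and Herpud1 an organiser of it. Their plasmablast distances were 922 and 369 bp for Herpud1, 72 and 147 bp for Sel1l and 279 and 373 bp for Syvn1. The values for Herpud1 are from opposite ends, the 5′ end in replicate 1 and the 3′ end in replicate 2. Sel1l also had an internal place, at chr12:91823432-91823709, with summits in 7 libraries and in both libraries of each germ-lineage cell type. Edem1, which trims mannose from chains marked for degradation, was bound in no cell type by its ends, with plasmablast summits 4249 and 1107 bp from an end. Its listed start lies 4596 bp inside the gene, and the plasmablast summits nearest to that start were at 135 and -319 bp. In d6 PGCLC replicate 1 a summit lay 168 bp from the start of Edem1, and in the other 9 libraries none was within 27195 bp of an end.

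Counting either a gene end or a listed start site, 42 of the 47 genes were bound in plasmablasts. The share of other genes under this joint rule was not obtained. It was 39.6% by ends alone and 41.8% by starts alone. The 5 ER genes not bound are Sec61a1, Ssr4, Spcs2, Copa and Hsp90b1. Sec61a1 has no listed start, so only its ends could count. For Sec61a1, Ssr4 and Copa, plasmablast replicate 1 did have a summit within 1 kb, and replicate 2 did not. For Spcs2, replicate 2 had a summit 29 bp from the listed start, which lies inside the gene, and the nearest of replicate 1 was 2251 bp from it.

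The start site could be placed for 41 of the 47 genes from the RefSeq promoter table. In plasmablasts 35 of these 41 (85.4%) had a summit within 1 kb of the start in both libraries, beside 41.8% of 17451 other genes with a listed start. The counts were 9 (22%) in photoreceptor precursors, beside 10.3%, 5 (12.2%) in d6 PGCLC, beside 9.37%, 4 (9.76%) in intestinal epithelium, beside 7.53%, 3 (7.32%) in d2 PGCLC, beside 8.11%, and 2 (4.88%) in E12.5 PGC, beside 5.84%. The order of the cell types was thus the same by start site as by gene end.

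Summits in plasmablasts clustered around the start in the ER genes much as in other genes. The median absolute distance was 175 and 196 bp for the ER genes and 153 and 140 bp for the others. Of these nearest summits 39.5% and 45.9% were upstream of the start, beside 52.7% and 55.6% for other genes. Of the 30 plasmablast-bound genes longer than 5 kb with a listed start, 28 were bound at the 5′ end (93.3%, others 96.2%) and 2, Sec24c and Xbp1, at the 3′ end (6.67%, others 7.77%). Sec24c counts at both ends and Pdia6 at neither, since its summits within 1 kb were at opposite ends in the libraries. At 28 of the 40 bound genes (70%) some summit of each plasmablast library within 1 kb of an end lay at most 200 bp from one of the other library. This held for 79.8% of the other bound genes. The summits so paired were not always those nearest to the gene.

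**Figure D3:**
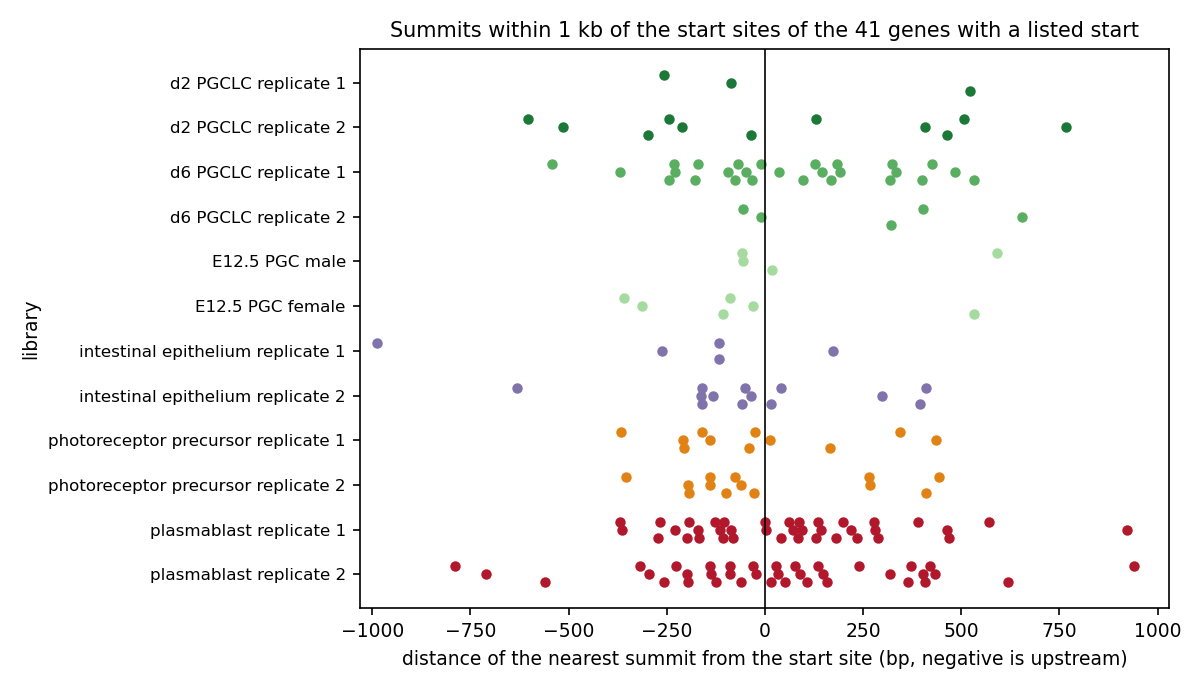
Distance in bp from the start site to the nearest summit (horizontal axis, negative values upstream) for the 41 genes with a listed start, in each library (vertical axis). Each point is 1 gene with a summit within 1 kb, and the small vertical offsets only separate points. The plasmablast rows hold 38 and 37 genes, spread on both sides of the start with median distances of 67 and 29 bp.

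The ER genes differed from the average gene in promoter type, and this moved with the share bound. A promoter window of 300 bp was called CpG-rich when its observed to expected CpG ratio was at least 0.6 and its GC content at least 50%. Of the 41 ER genes with a window 35 (85.4%) were CpG-rich, beside 48.2% of other genes. Among CpG-rich genes alone, 30 of 35 ER genes (85.7%) were bound in plasmablasts, beside 64.7% of 8417 others and 43 of 47 ribosomal protein genes (91.5%). In photoreceptor precursors 8 (22.9%) were bound, beside 15.6%. Among CpG-rich genes the other cell types showed 5 bound (14.3%, others 14.5%) in d6 PGCLC, 4 (11.4%, others 12%) in intestinal epithelium, 3 (8.57%, others 12.4%) in d2 PGCLC and 2 (5.71%, others 8.84%) in E12.5 PGC.

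The gap to other genes was therefore smaller within the CpG-rich class than over all genes, in plasmablasts 85.7% against 64.7% in place of 85.1% against 39.6%, and in the germ-lineage cells and the intestinal epithelium the ER genes were at or below the CpG-rich background. How much expression level contributes was not tested, since these lists hold no RNA values. The 6 ER genes outside the class were Sec61g, Sec62, Sec24a, Sar1b, Copa and Xbp1, of which all but Copa were bound in plasmablasts, beside 17.1% of 9034 other genes outside it. Ribosomal protein genes outside the class were bound there in 11 of 11 cases (100%), so this high share is not particular to the ER genes.

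**Figure D4:**
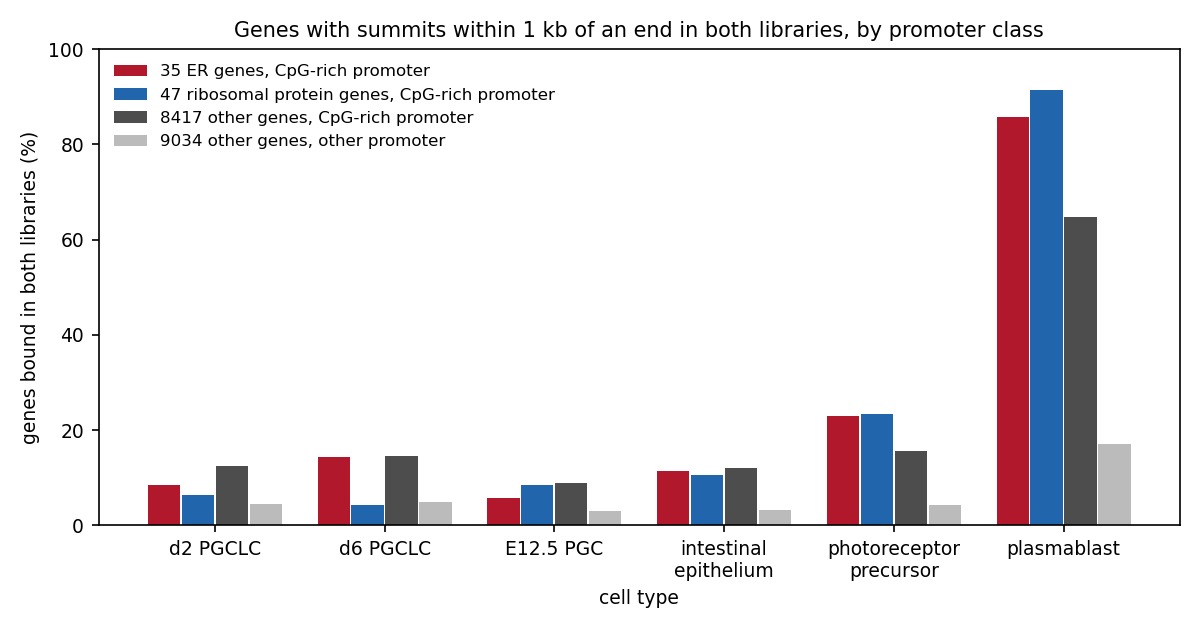
Percentage of genes bound in both libraries within 1 kb of an end (vertical axis, from 0) by cell type, for 35 ER genes, 47 ribosomal protein genes and 8417 other genes with a CpG-rich promoter and for 9034 other genes without one. In plasmablasts the bars stand at 85.7%, 91.5%, 64.7% and 17.1%, and in d2 PGCLC the bar of the ER genes (8.57%) is below that of other CpG-rich genes (12.4%).

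Another gene's end lay within 1 kb of 15 of the 47 genes (31.9%, other genes 24.8%), so that a summit there could belong to either. In plasmablasts 11 of these 15 (73.3%) were bound, beside 63.5% of other genes with a neighbour. Of the 32 without such a neighbour 29 (90.6%) were bound, beside 31.7% of other genes without one. The difference from other genes was thus larger among genes with no close neighbour.

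The promoters of the ER genes were searched on both strands for short sequences, in windows from 250 bp before to 50 bp after the start. GTGAAAG, a fuller form of the known BLIMP1 sequence, was present in 2 of 43 windows (4.65%), beside 3.89% of all 21263. GAAAGT was present in 7 (16.3%, all 13.5%) and GAAAG, which is contained in both, in 25 (58.1%, all 55%). The ER genes therefore held these letters about as often as promoters in general. Both GTGAAAG matches are shown with 20 bases on each side, in the direction of transcription, at chr12:59012127-59012173 (- strand) for Sec23a and chr4:47474531-47474577 (+ strand) for Sec61b, with the match, which is on the opposite strand, in capitals.
Sec23a: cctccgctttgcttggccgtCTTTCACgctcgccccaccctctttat
Sec61b: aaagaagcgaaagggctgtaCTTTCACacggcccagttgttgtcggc

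At Sec61b the summits of 6 libraries lay 11 to 246 bp from the centre of the match, with a median of 38 bp. These libraries were both of intestinal epithelium and of plasmablasts and single ones of d6 PGCLC and photoreceptor precursors. At Sec23a the summits of 3 libraries lay 36 to 498 bp from the centre, with a median of 149 bp.

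The ER stress response element, CCAAT followed by 9 bases and CCACG, is the sequence through which ATF6 acts on chaperone genes. It was present on either strand in 6 of the 43 windows (14%), beside 0.141% of all windows. The genes were Calr, Canx, Hsp90b1 (2 elements), Hspa5, Pdia6 and Syvn1. The elements are shown with 8 bases on each side because the element is the sequence most over-represented in these promoters among those searched, in the direction of transcription and with CCAAT and CCACG (or their complements) in capitals. The stretches lie at chr8:84847067-84847101 for Calr, chr11:50325792-50325826 for Canx, chr10:86705630-86705664 and chr10:86705525-86705559 for Hsp90b1 (all - strand), and at chr2:34772017-34772051 for Hspa5, chr12:17266483-17266517 for Pdia6 and chr19:6046524-6046558 for Syvn1 (+ strand).
Calr: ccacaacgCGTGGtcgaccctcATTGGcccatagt
Canx: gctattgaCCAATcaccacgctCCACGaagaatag
Hsp90b1, distal element: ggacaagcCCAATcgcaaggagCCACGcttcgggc
Hsp90b1, proximal element: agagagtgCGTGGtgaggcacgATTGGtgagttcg
Hspa5: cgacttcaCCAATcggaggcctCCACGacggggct
Pdia6: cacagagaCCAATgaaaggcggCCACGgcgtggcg
Syvn1: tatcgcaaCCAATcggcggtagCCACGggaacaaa

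All of these genes except Hsp90b1 were bound in plasmablasts, and at most of them the summits lay away from the element. At Hspa5, 4 libraries had summits 447 to 466 bp from its centre, on the far side of the start site. At Syvn1 they were 197 to 444 bp away in 5 libraries, and at Canx 176 to 425 bp away in 7 libraries. Pdia6 had 1 summit near its start, 140 bp away. Calr had summits 7 to 215 bp away in 4 libraries. At Hsp90b1 the nearest summits were 5 bp from the distal and 2 bp from the proximal element, in libraries of the photoreceptor precursors, and the farthest were 429 and 534 bp away.

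Other genes of the same pathway, 87 in all and outside the list of 47, showed the same order of cell types at the extremes. In plasmablasts 69 (79.3%) were bound, beside 39.6% of all other protein-coding genes. The counts were 15 (17.2%, others 7.28%) in intestinal epithelium and 13 (14.9%, others 9.65%) in photoreceptor precursors. They were 10 (11.5%, others 8.41%) in d2 PGCLC, 7 (8.05%, others 9.72%) in d6 PGCLC and 6 (6.9%, others 5.79%) for the E12.5 PGC. Intestinal epithelium thus stood above photoreceptor precursors, the reverse of their order among the 47 genes (10.6% and 21.3%). Every one of the 12 oligosaccharyltransferase genes, which attach glycans to new chains, and of the 14 further degradation genes was bound in plasmablasts. The counts were 16 of 21 for further vesicle coat and cargo genes, 12 of 18 for folding, 9 of 12 for unfolded protein response signalling and 6 of 10 for targeting and translocation. That last group includes Srp54a, Srp54b and Srp54c, near-identical copies whose mapped reads are uncertain.

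Among these genes Sec11c, Mcfd2, P4hb and Derl1 were bound in all 6 cell types, with a summit within 1 kb in all 12 libraries. Sec11c encodes a catalytic subunit of signal peptidase, with summits 183 to 474 bp from an end. Mcfd2 encodes a cargo receptor subunit, with summits 15 to 752 bp away. P4hb encodes protein disulfide isomerase, with summits 46 to 134 bp away. Derl1 encodes a degradation channel protein, with summits 2 to 314 bp away. These 4 are 4.6% of the 87 genes, beside 2.28% of all other genes and 5.06% of the ribosomal protein genes.

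Tmed2, a cargo receptor of COPI and COPII vesicles, was bound in 5 cell types, all but d6 PGCLC, where replicate 2 had no summit within 114103 bp. Eif2ak3, which encodes PERK, was bound in 4 cell types, at 224 and 563 bp in d2 PGCLC, 258 and 399 bp in d6 PGCLC, 223 and 265 bp in photoreceptor precursors and 99 and 290 bp in plasmablasts. Creb3 and Aup1 were each bound in d2 PGCLC, intestinal epithelium, photoreceptor precursors and plasmablasts. Tmed9 was bound in d2 PGCLC, at 242 and 48 bp, and not in plasmablasts, where the distances were 2264 and 138 bp. Of the 3 sensors, PERK thus had binding near its gene in germ-lineage cells, while Ern1 and Atf6 were not bound at their ends there.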

How the data were processed

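EGFP-BLIMP1 ChIP-seq was deposited as 1 summit list per library. Reads were trimmed with Trim Galore 0.3.7 (cutadapt 1.7.1), and Bowtie 1.1.2 and MACS2 2.1 are the other programs named, with mm10 as the build, per the submitters' processing notes. The deposited values are positions without score or height. Neither the threshold and control of peak calling nor the depth in reads is given in the sources used here, and positions may be off by 1 bp because their counting base is unknown. The input library was not analysed here.

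Gene ends came from RefSeq on GRCm38.p6 (the coordinates of mm10), and start sites, strands and sequences from the RefSeq promoter table, which held 41 of the 47 genes. A gene was bound when both libraries of a cell type had a summit within 1 kb of either end. All other protein-coding genes (21840) include the other pathway and ribosomal protein genes. The bound call was tested on simulated data, in Python 3.11.15. No test was made over the genes, which are not replicates. With 2 libraries per cell type, the spread between them is the only error available.

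The genes, the lists and the rule for naming were chosen with earlier results of these data known. Named with every library were genes bound in at least 3 cell types or in none, and Xbp1, Atf6 and Ern1. Of the other pathway genes, those bound in at least 4 cell types were named, and those bound outside plasmablasts only. The GAAANNGAAA repeat, the CpG classes, the places away from gene ends and the number of summits around a gene were chosen after seeing the data. Alternatives were windows of 0.5 and 5 kb, a summit in either library, summits at most 200 bp apart, start sites in place of ends, CpG-rich genes as background, and leaving out each library.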

Additional observations from a re-analysis of the deposited data

How the results depend on the processing

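In plasmablasts the count of bound ER genes stayed within 1.5 times of 40 under all 7 alternatives, from 28 (summits of both libraries at most 200 bp apart) to 46 (5 kb), and it was 40 to 43 with 1 library left out. The share of ER genes was 59.6% (others 31.6%) with summits at most 200 bp apart and 66% (others 31.8%) at 0.5 kb. It was 91.5% (others 48.3%) with a summit in either library and 97.9% (others 50.2%) at 5 kb. The smaller counts moved more. Accepting a summit in either library gave 29 genes in d6 PGCLC (61.7%, others 36.6%) and 20 in photoreceptor precursors (42.6%, others 17%). It gave 16 in intestinal epithelium (34%, others 19.1%), 12 in d2 PGCLC (25.5%, others 18.2%) and 10 for the E12.5 PGC (21.3%, others 13.4%). Under that setting 2 genes were bound in all 6 cell types and 2 in none. The 5 kb window gave 8 in intestinal epithelium (others 12.9%), 7 in d2 PGCLC (others 17.8%) and 5 for the E12.5 PGC (others 12.2%), and 1 gene bound in no cell type. For the patterns across all 6 cell types, shares of other genes were not obtained under these settings, so these counts cannot be set against a background. The 0.5 kb window gave 3 in d6 PGCLC (6.38%, others 5.9%) and 1 for the E12.5 PGC (2.13%, others 3.81%). With 1 library left out, so that the other alone decides, the counts ranged from 7 to 28 in d6 PGCLC, 14 to 16 in photoreceptor precursors, 5 to 16 in intestinal epithelium, 4 to 12 in d2 PGCLC and 4 to 8 for the E12.5 PGC. In the 47 alternatives for the counts of ER genes, 28 stayed within 1.5 times and 19 did not.

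Taking CpG-rich genes as the background, an alternative added after seeing the data, raised the share of other genes bound in all 6 cell types. It rose from 39.6% to 64.7% in plasmablasts, from 9.65% to 15.6% in photoreceptor precursors and from 7.28% to 12% in intestinal epithelium. In the germ lineage it rose from 8.41% to 12.4% in d2 PGCLC, from 9.72% to 14.5% in d6 PGCLC and from 5.79% to 8.84% in E12.5 PGC. No paired analysis was possible because no result comes from a test and replicate numbers name libraries only. The lists carry no depth or height. The plasmablast lists (40750 and 45122 summits) were shorter than that of d6 PGCLC replicate 1 (76185), and reached 43 and 40 ER genes against 28. The other genes had the same order, 42.6% and 45.4% against 35.9%, so this order is not particular to the ER genes.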
